A study of Homo sapiens with 4 samples.

Results

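Neuroendocrine marker genes were examined in 2 lines derived from lung squamous cell carcinoma, H520 and LK2, both long established in culture. The members were the 9 genes CHGA, CHGB, SCG2, SCG3, SYP, DDC, INSM1, UCHL1 and NCAM1, chosen by name as markers of the neuroendocrine phenotype, out of 18852 named genes on the array. All 9 were measured, by 13 probes in all: 4 for NCAM1, 2 for SCG3 and 1 for each of the other 7. Each line had been given either scrambled control siRNAs or a pool of siRNAs against SOX2, a transcription factor gene, and RNA was taken after 48 h. That made 4 groups of 1 Illumina HumanHT-12 v3 BeadChip array each: H520 control, H520 SOX2 siRNA, LK2 control and LK2 SOX2 siRNA. The labels give no genotype, passage or clone for either line and no untransfected array, so the controls too are siRNA-treated cells.

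Neuroendocrine cells store peptide hormones and amines in dense-core granules and release them on stimulation. Granins, acidic proteins of the granule core, drive granule formation and are cleaved into peptides, and INSM1 is a zinc-finger transcription factor of neuroendocrine cells. In the lung such cells are scattered in the airway epithelium, and their markers are used in pathology to tell small cell carcinoma and carcinoid from squamous cell carcinoma. The comparisons asked whether these markers differed when SOX2 was depleted and whether the lines differed from each other.

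SOX2 itself stood at 63.2% and 63.8% of control in H520 by its 2 probes and at 26.9% and 19.9% in LK2, so the depletion was unequal. Values are the authors' log values, centred per probe near 0 and taken as log2, since their base is not recorded. They carry no signal level, so whether a marker was expressed at all, or which marker was the most abundant, could not be read from them. With 1 array per group there is no replicate spread within a group, and neighbouring arrays in the order of a gene's values cannot be told apart by a test. In such bulk samples, fewer cells holding a transcript and less of it per cell cannot be told apart. As a yardstick of probe error, the SD of a single probe's siRNA change within its gene was 0.18 in H520 and 0.21 in LK2. It was taken over 3934 genes with 2 probes. Probes of a gene share the same arrays, so it holds no spread between arrays or transfections.

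Regulatory sequence at the start of 4 members (DDC, SCG3, SYP and UCHL1) was read from the RefSeq promoter table of GRCh38.p14, as 5 windows of 300 bases, 250 before and 50 after the start site. CHGA was set aside before the search, and CHGB, INSM1, NCAM1 and SCG2 had no window at hand. The SCG3 window is shown because SCG3 passed the test between the lines and its window held the letters of elements known from neuroendocrine promoters. Capitals mark the matched letters, which were chosen after the sequences had been read and were searched on both strands. The SCG3 window lies at chr15:51681253-51681552 on the plus strand.
SCG3: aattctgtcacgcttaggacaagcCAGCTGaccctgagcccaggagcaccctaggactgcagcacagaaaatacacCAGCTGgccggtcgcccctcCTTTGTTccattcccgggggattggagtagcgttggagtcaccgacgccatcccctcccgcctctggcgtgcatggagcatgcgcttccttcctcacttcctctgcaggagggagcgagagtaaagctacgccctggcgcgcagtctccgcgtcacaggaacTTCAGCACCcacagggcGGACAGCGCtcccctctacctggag

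In the SCG3 window TTCAGCACC began at position 9 after the start site and GGACAGCGC at 26, on the same strand. These are the letters of the left and right arms of RE1, the element bound by the neuronal repressor REST. They were found in 0.376% and 0.581% of the 35116 windows in the table, and both arms together in 7 windows. That count took the arms on either strand and in any order or spacing, so it is not a count of whole RE1 elements. Whether the spacing in the SCG3 window is that of a working RE1 was not tested. The SCG3 window also held CAGCTG, an E-box of the kind bound by basic helix-loop-helix factors, at -226 and -174. It held AACAAAG, a SOX-type core, on the minus strand at -154. CAGCTG was in 17.9% and AACAAAG in 5.20% of all windows. The UCHL1 window held TATAAA, present in 11.5% of windows, on the minus strand at -29, and the DDC and SYP windows held none of these letters. No matched letters overlapped in the member windows, and a match is a run of letters, not a measured binding site.

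Among the granins, CHGB, encoding chromogranin B, showed the largest difference between the lines. Its centred log2 values were 0.68 in H520 control, -0.13 in H520 SOX2 siRNA, -1.74 in LK2 control and -1.98 in LK2 SOX2 siRNA. Both H520 arrays lay above both LK2 arrays, and in each line the SOX2 siRNA array was the lower. On the control arrays CHGB was 5.34-fold higher in H520 than in LK2, and on the SOX2 siRNA arrays 3.60-fold higher. With SOX2 siRNA it stood at 57.1% of control in H520 and 84.7% in LK2.

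SCG3, encoding secretogranin III, which binds chromogranin A and anchors it to the granule membrane, had the opposite order. By its first probe the values were -0.02 in H520 control, -0.0034 in H520 SOX2 siRNA, 1.5 in LK2 control and 1.01 in LK2 SOX2 siRNA. By its second probe they were -0.51, -0.35, 1.85 and 1.04 in the same order. Both probes placed LK2 above H520 under either siRNA, and both were lower with SOX2 siRNA in LK2 but not in H520. As the mean of its probes, SCG3 was 3.85-fold higher in LK2 on the control arrays and 2.30-fold higher on the SOX2 siRNA arrays. It stood at 63.6% of control in LK2 (70.9% and 57.1% by probe) and at 106.6% in H520.

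SCG2, encoding secretogranin II, the precursor of the peptide secretoneurin, was at 0.12 in H520 control, -0.01 in H520 SOX2 siRNA, -0.49 in LK2 control and -0.47 in LK2 SOX2 siRNA. Both H520 arrays were the higher, and the siRNA arrays lay close to their controls. CHGA, encoding chromogranin A, the granin most used as a serum and tissue marker, was at 0.35, 0.01, 0.02 and -0.22 in the same order of arrays. Its order was H520 control, then LK2 control and H520 SOX2 siRNA side by side, then LK2 SOX2 siRNA. CHGA stood at 79.0% of control in H520 and 85.0% in LK2, a lower value in both lines.

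INSM1, the transcription factor, was at -0.12 in H520 control, -0.89 in H520 SOX2 siRNA, 0.42 in LK2 control and 0.24 in LK2 SOX2 siRNA. Both LK2 arrays lay above both H520 arrays, and the H520 SOX2 siRNA array stood apart below the others. INSM1 was at 58.9% of control in H520 and 88.2% in LK2. The difference between the lines was 1.46-fold on the control arrays and 2.18-fold on the SOX2 siRNA arrays, LK2 being higher. LK2 was thus the line with the lower CHGB and the higher INSM1.

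DDC encodes aromatic L-amino acid decarboxylase, which makes dopamine and serotonin from their precursors. Its values were 0.38 in H520 control, -0.23 in H520 SOX2 siRNA, -0.23 in LK2 control and -0.04 in LK2 SOX2 siRNA. The H520 control array was the highest, and the other 3 lay between -0.23 and -0.04. DDC stood at 65.2% of control in H520 and 114% in LK2.

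UCHL1, a neuronal ubiquitin hydrolase also known as PGP9.5, was at -0.08 in H520 control, 0.02 in H520 SOX2 siRNA, -0.26 in LK2 control and 0.38 in LK2 SOX2 siRNA. The LK2 SOX2 siRNA array was the highest, at 156% of its control, against 108% in H520. SYP, encoding the vesicle membrane protein synaptophysin, was at -0.15, 0.07, -0.26 and 0.05 in the same order. Both SOX2 siRNA arrays were above both controls, at 117% of control in H520 and 124% in LK2.

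NCAM1, the adhesion molecule known as CD56, was nearly level on the 4 arrays. Its 4 probes ran from -0.16 to 0.14, and the mean of the probes was 0.06 in H520 control, -0.02 in H520 SOX2 siRNA, 0.02 in LK2 control and 0.05 in LK2 SOX2 siRNA. The widest siRNA change of a single NCAM1 probe was -0.25 in H520, where the other 3 were at -0.06, -0.02 and 0.02.

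**Figure D1:**
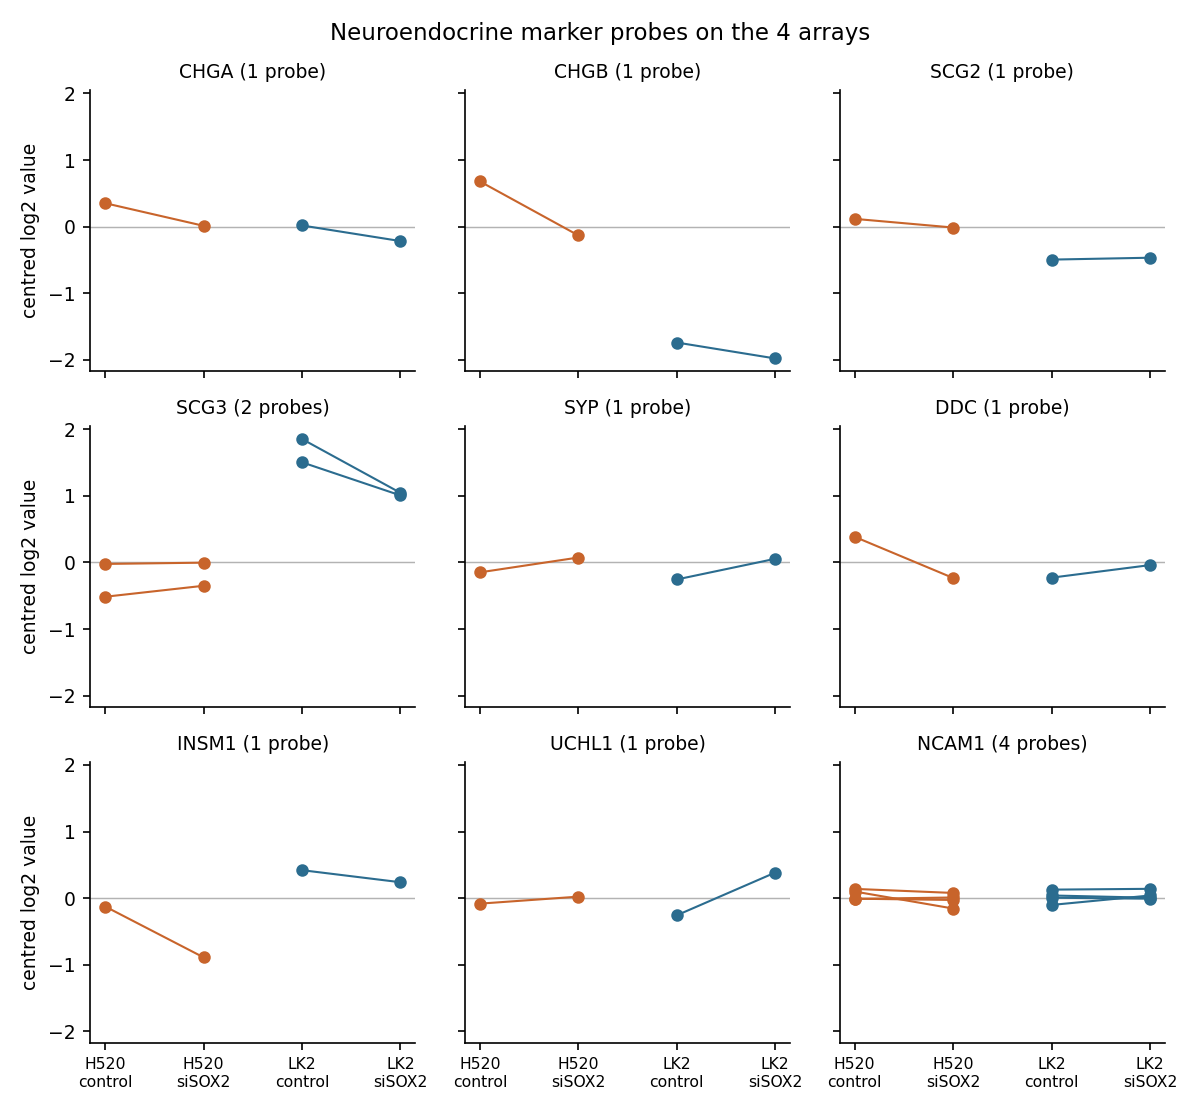
Centred log2 value (y axis) of every probe of the 9 marker genes on the 4 arrays (x axis). Each point is 1 probe on 1 array, and lines join control to SOX2 siRNA within H520 (orange) and within LK2 (blue). CHGB runs from 0.68 in H520 control to -1.98 in LK2 SOX2 siRNA, SCG3 is higher in LK2 by both probes, and the 4 NCAM1 probes stay near 0.

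For the siRNA comparison within each line, log2 changes are SOX2 siRNA minus control. In H520, 3 of the 9 markers were at least 1.5-fold lower (CHGB at -0.81, INSM1 at -0.76 and DDC at -0.62) and 0 were at least 1.5-fold higher. Over all genes 1.07% were that much lower in H520 and 0.806% higher. The median of the 9 was -0.13, beside 0.0024 over all genes. In LK2, UCHL1 (0.64) was at least 1.5-fold higher, where 1.90% of all genes were, and SCG3 (-0.65) at least 1.5-fold lower, where 1.30% were. The LK2 median was 0.03, beside -0.0031 over all genes. At 2-fold, 0 of the 9 were reached in either line, where 0.371% of all genes in H520 and 0.774% in LK2 were. The difference between the lines in siRNA change was not tested.

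In both lines together, CHGA, CHGB and INSM1 were lower with SOX2 siRNA, SYP and UCHL1 higher, and DDC, NCAM1, SCG2 and SCG3 went opposite ways. Over all genes, 27% were lower in both, 27% higher in both and 45.9% opposite, so 3, 2 and 4 of 9 lie near the background.

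The siRNA contrast was tested with limma over all genes, with the 2 lines as replicates and cell line as a block. An error after ± is the standard error of that fit, which grows with the difference between the siRNA changes of the lines. It joins 1 residual degree of freedom of the gene with 5.19 prior degrees of freedom from all genes. Genes with nearly equal changes in the lines thus share an error near 0.10, which is not a precision of their own. None of the 9 markers passed the adjusted threshold of 0.05, and over all genes 1 gene (0.0053%) did. SOX2, the target of the siRNA, did not pass this test either, at -1.38 ± 0.31 (limma, adjusted p = 0.330). CHGB was at -0.52 ± 0.15 (limma, adjusted p = 0.431) and INSM1 at -0.47 ± 0.15 (adjusted p = 0.482). CHGA was at -0.29 ± 0.10 (limma, adjusted p = 0.515), UCHL1 at 0.37 ± 0.15 (adjusted p = 0.568) and SYP at 0.27 ± 0.10 (adjusted p = 0.561). These 5 had an unadjusted limma p under 0.05, as had 8.4% of all genes. SCG3 (-0.28 ± 0.18), DDC (-0.21 ± 0.19), SCG2 (-0.05 ± 0.10) and NCAM1 (-0.03 ± 0.10) did not. DDC and SCG3 had the widest errors, and their changes also lay farthest apart, LK2 minus H520 being 0.81 for DDC and -0.74 for SCG3.

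**Figure D2:**
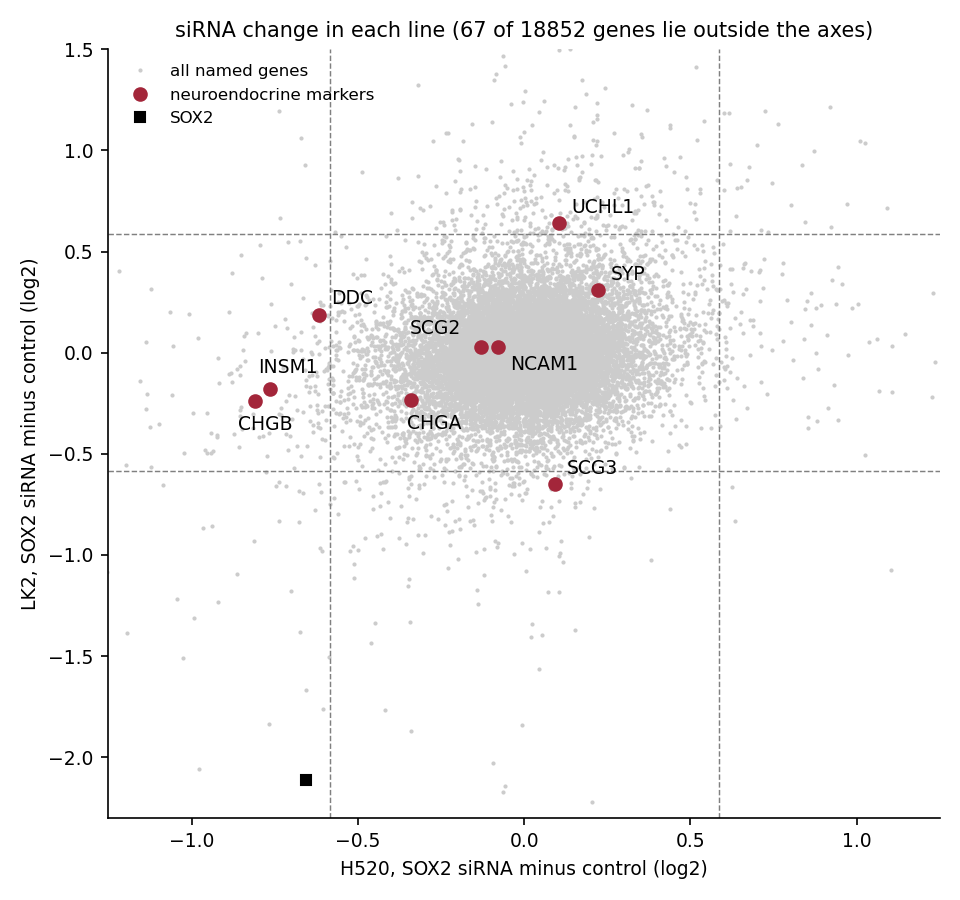
Log2 change with SOX2 siRNA in H520 (x axis) against that in LK2 (y axis), 1 point per gene. Grey points are all named genes, of which 67 lie outside the axes, red points the 9 markers and the black square SOX2, and dashed lines mark 1.5-fold. CHGB, INSM1 and DDC lie beyond the left line, UCHL1 above the upper line and SCG3 below the lower line.

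The difference between the lines, LK2 minus H520, passed the test for 4 of the 9 markers, 2 in each direction. SCG3 was higher in LK2 by 1.57 ± 0.18 on the log2 scale (limma over both siRNA arms, adjusted p = 0.00154) and INSM1 by 0.84 ± 0.15 (adjusted p = 0.00915). CHGB was higher in H520, at -2.13 ± 0.15 (limma, adjusted p = 0.000287), and SCG2 at -0.53 ± 0.10 (adjusted p = 0.0118). Over all genes 14% passed as higher in LK2 and 13.4% as higher in H520. Without the siRNA block INSM1 did not pass (adjusted p = 0.0694), whereas the calls of CHGB, SCG2 and SCG3 held.

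CHGA was at -0.28 ± 0.10 (limma, adjusted p = 0.0954), DDC at -0.21 ± 0.19 (adjusted p = 0.495), SYP at -0.06 ± 0.10 (adjusted p = 0.715), UCHL1 at 0.09 ± 0.15 (adjusted p = 0.708) and NCAM1 at 0.02 ± 0.10 (adjusted p = 0.933). None of these 5 passed. Within the granin family the signs were split, with CHGB and SCG2 higher in H520 and SCG3 higher in LK2. The 2 probes of SCG3, fitted on their own, were at 1.27 ± 0.15 (limma, adjusted p = 0.000361) and 1.88 ± 0.21 (adjusted p = 0.000265).

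On the control arrays alone, with no test, the LK2 minus H520 differences ran from -2.42 for CHGB to 1.95 for SCG3. CHGB was at least 2-fold higher in H520, where 3.24% of all genes were, and SCG3 at least 2-fold higher in LK2, where 3.85% were. Between them lay DDC and SCG2 (both -0.61), CHGA (-0.33), UCHL1 (-0.17), SYP (-0.11), NCAM1 (-0.04) and INSM1 (0.55). On the SOX2 siRNA arrays INSM1 was also past 2-fold, at 1.13, where 4.51% of all genes were that much higher in LK2. CHGB stayed past 2-fold there, where 3.71% of all genes were that much higher in H520. DDC and UCHL1 had the other sign on those arrays, at 0.19 and 0.36.

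**Figure D3:**
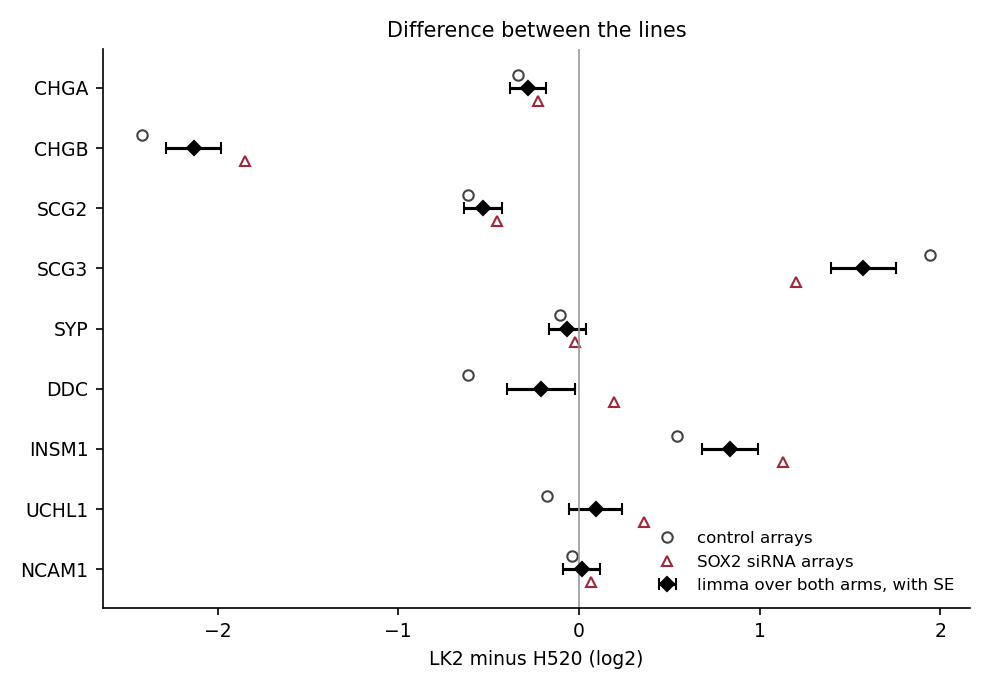
LK2 minus H520 on the log2 scale (x axis) for the 9 markers. Black diamonds are limma estimates over both siRNA arms with standard errors, open circles the control arrays and open triangles the SOX2 siRNA arrays. CHGB (-2.13) and SCG3 (1.57) lie farthest from 0 on opposite sides.

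Genes of the wider neuroendocrine machinery, and of the REST repressor complex, were followed in 8 lists, with 89 of their genes measured. By limma over both siRNA arms, 21 of the 89 passed toward LK2 and 8 toward H520, beside 14% and 13.4% of all genes. Counts of the single lists below are of genes that passed this test, and the same 14% and 13.4% stand beside each of them. The repressor complex gave 3 of the 21 and 0 of the 8, so the pooled counts are not of activating genes alone. In the siRNA contrast 0 passed by limma. Of the 125 genes measured in these and the marker lists, 15 had an unadjusted p under 0.05 there, beside 8.4% of all genes.

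Among transcription factors, 3 of 13 measured were higher in LK2 and 1 in H520. The former were MYT1, a zinc-finger factor of neural and endocrine precursors (1.56 ± 0.30), POU3F2, a neural POU factor (1.19 ± 0.24), and NKX2-2, a homeobox factor of endocrine cells (1.10 ± 0.11), and the latter was PROX1 (-2.09 ± 0.28). The median on the control arrays was 0.11, beside 0.01 over all genes. With SOX2 siRNA, POU3F2 was at -0.77 in H520 and -1.84 in LK2, MYT1 at 0.21 and 1.63, PROX1 at 0.11 and -1.19 and ISL1, a LIM homeobox factor, at -0.37 and -0.76. NEUROD1 was not analysed here.

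For the REST repressor complex, 3 of 9 members were higher in LK2 and 0 in H520. These were the corepressor genes RCOR2 (1.08 ± 0.16), RCOR3 (0.59 ± 0.12) and SIN3A (0.51 ± 0.10). The control-array median was 0.29. REST itself was at -0.15 ± 0.12 between the lines, and with SOX2 siRNA at 0.11 in H520 and -0.19 in LK2. RCOR2 was at 0.08 and 0.68, and the demethylase gene KDM1A at -0.18 and -0.63.

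Of granule cargo and processing genes, 2 of 11 were higher in LK2 and 2 in H520, with a control-array median of -0.0023. CPE, encoding the carboxypeptidase that trims prohormones, was higher in LK2 by 1.95 ± 0.10 (limma, adjusted p = 9.16e-05), and ICA1 by 0.37 ± 0.10, its 4 probes running from 0.09 to 0.66. RPH3AL (-0.50 ± 0.14) and SCG5, encoding the chaperone of a prohormone convertase (-0.47 ± 0.11), were higher in H520. With SOX2 siRNA CPE was at -0.46 in H520 and -0.49 in LK2, and PAM, which amidates peptides, at 0.17 and -0.60. CADPS2, which primes dense-core granules for release, was at -0.24 and -0.57, with its 2 probes at -0.91 and -0.23 in LK2.

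In regulated exocytosis, 5 of 18 genes were higher in LK2 and 2 in H520, with a control-array median of 0.09. SNAP25, a membrane fusion protein gene, was higher in LK2 by 2.17 ± 0.10, although its 2 probes stood at 3.72 and 0.62. VAMP2, its vesicle partner, was higher by 0.95 ± 0.13. SYT11 (-2.60 ± 0.10) and the granule GTPase gene RAB3B (-0.97 ± 0.14) were higher in H520. RAB3B was at -0.72 with SOX2 siRNA in H520 and -0.24 in LK2.

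Among genes of monoamine synthesis and transport, which act with DDC, 2 of 13 were higher in LK2 and 2 in H520, with a control-array median of -0.05. SLC18A2, the vesicular monoamine transporter, was higher in LK2 by 2.90 ± 0.15 (limma, adjusted p = 9.34e-05). QDPR, which regenerates the hydroxylase cofactor, was higher there by 0.56 ± 0.11. DBH, which makes noradrenaline (-0.82 ± 0.16), and PTS, of cofactor synthesis (-0.66 ± 0.11), were higher in H520. With SOX2 siRNA DBH was at 0.85 in H520 and 0.26 in LK2, and SLC18A2 at -0.15 and 0.41.

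Of the peptide genes, 3 of 15 were higher in LK2 and 0 in H520, with a control-array median of 0.05. The neuropeptide gene GAL was higher in LK2 by 1.83 ± 0.10, ADM by 0.69 ± 0.12 and NMB by 0.53 ± 0.10. GAL was at -0.46 with SOX2 siRNA in H520 and -0.42 in LK2. GRP, the bombesin-like peptide of lung neuroendocrine cells, was at -0.05 ± 0.13 between the lines.

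The list of NCAM relatives and polysialylation genes also held DLL3, which is neither. In this list 3 of 8 genes, DLL3 among them, were higher in LK2 and 1 in H520, with a control-array median of 0.48. ST8SIA2 (1.11 ± 0.13) and ST8SIA4 (0.61 ± 0.10) encode the enzymes that add polysialic acid to NCAM1, although the 4 ST8SIA4 probes ran from -0.05 to 1.10. The Notch ligand gene DLL3 was at 0.52 ± 0.10, and CHL1 (-0.53 ± 0.14) was higher in H520. With SOX2 siRNA NRCAM was at -0.32 in H520 and -0.90 in LK2, but its probes in H520 disagreed, at -0.68 and 0.04. CNTN1 was at 0.44 in H520 and -0.0029 in LK2. CHL1 was at -0.16 and -0.68, but its probes in LK2 disagreed, at -1.52 and 0.16. Of 2 relatives of UCHL1, UCHL3 (-0.30 ± 0.10) and UCHL5 (-0.32 ± 0.10), 0 passed by limma between the lines. Both had an unadjusted limma p under 0.05, as had 7003 of all 18852 genes in that comparison.

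**Figure D4:**
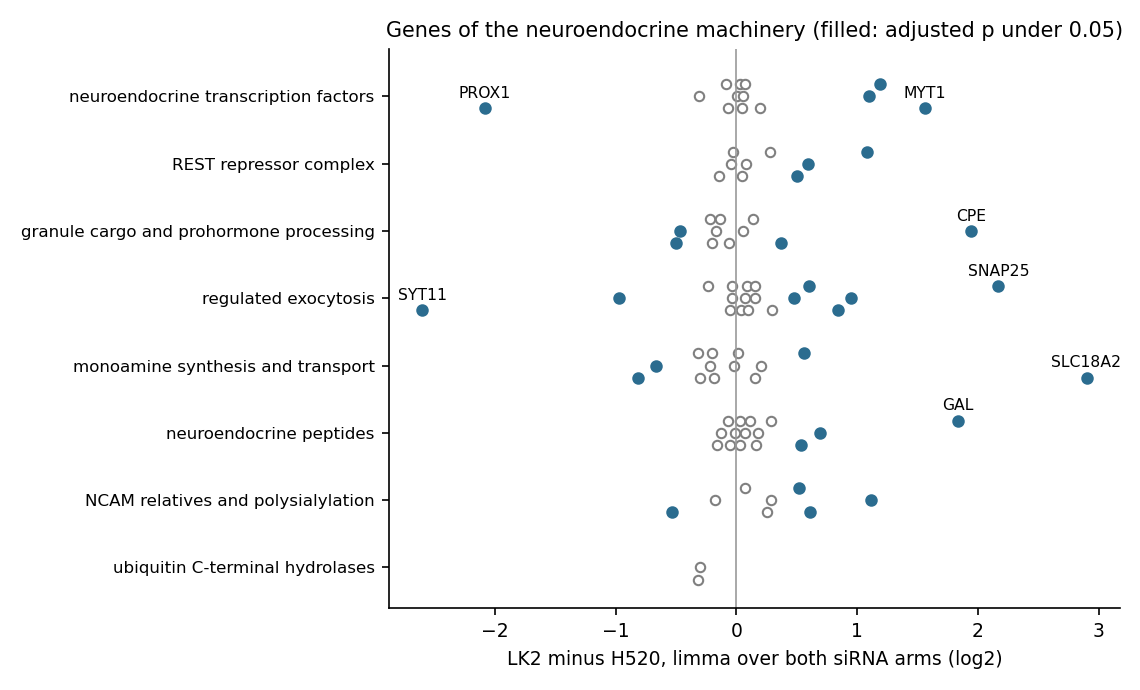
LK2 minus H520 by limma over both siRNA arms (x axis, log2) for the 89 measured genes of 8 lists (y axis), 1 point per gene. Filled points passed the adjusted threshold, and genes beyond 1.5 are named. SLC18A2 (2.90), SNAP25 (2.17), CPE (1.95) and GAL (1.83) lie on the LK2 side, SYT11 (-2.60) and PROX1 (-2.09) on the H520 side.

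Marker lists of other cell types were read beside these results. Of squamous markers, 4 of 10 measured were higher in LK2 (among them DSC3 at 1.12 ± 0.11, SERPINB5 at 1.07 ± 0.13 and PERP at 0.75 ± 0.21) and 1 in H520 (TRIM29 at -0.97 ± 0.11). The other 5 did not pass and ran from -0.13 to 0.21, and over all genes 14% passed toward LK2 and 13.4% toward H520. The 2 DSC3 probes stood at 1.82 and 0.42. KRT6A, KRT17 and TP63 were not analysed here. By limma 0 of 8 passed in the neuronal list, 0 of 6 in the lung adenocarcinoma list and 0 of 7 in the immune list. At an unadjusted limma p under 0.05 between the lines were 0, 1 and 1 of them, beside 7003 of all 18852 genes. In the fibroblast list 1 of 5 passed (LUM at 0.56 ± 0.13), although its 2 probes stood at 1.08 and 0.05. In the siRNA contrast 0 genes of these lists passed. In H520 with SOX2 siRNA the squamous median was -0.09, with PERP at -0.80, and in LK2 it was 0.07. The squamous markers that passed lay on both sides, and their part in the line difference of the neuroendocrine markers was not tested.

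The genes nearest in pattern were named for the 3 markers with the largest siRNA change in either line. Likeness was the Euclidean distance over 3 log2 differences: the siRNA change in H520, that in LK2 and the control-array line difference. Nearest to CHGB were CPED1 (distance 0.22), SPATS2L (0.23) and MX1 (0.24), the last at -0.62, -0.26 and -2.27 for the 3 differences. Nearest to INSM1 were ERMP1 (0.07), PCNP (0.18) and COLEC12 (0.19). Nearest to SCG3 were SERPINI1 (0.08, with differences of 0.10, -0.73 and 1.96), SP8 (0.10) and PRICKLE1 (0.17). These distances rest on 4 arrays.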

How the data were processed

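Expression was measured on 4 arrays, 1 per group, and groups were taken from the sample titles. The authors deposited log values, read here as log2, for 48801 probes, and their normalization and centring are not stated in the labels. The column means were all 0.00475 and medians from -0.000497 to 0.00118, as after quantile normalization and centring per probe, over an unknown set of arrays. A second deposited table held linear intensity in 4 columns whose names match no sample. These were given to no sample and not used. The log base is not recorded and was taken as 2; with another base every fold, percentage and count past a fold would differ, while tests and signs would not. No detection filter was possible, and the few arrays limit precision.

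The platform annotation gave 1 symbol to 28096 probes, several to 13 and none to 20692. By Entrez identifier 28057 matched RefSeq (GRCh38.p14), and 0 symbols changed. Probes of 1 gene were averaged. Differences were fitted with limma 3.58.1 in R 4.3.3, as line plus siRNA, with 1 residual and 5.19 prior degrees of freedom, Benjamini-Hochberg adjustment over 18852 genes, two-sided, at 0.05. The labels pair the arrays by cell line. The single residual is the difference between the siRNA changes of the lines, joined in the fit with a prior variance from all genes. The p-values measure only these spreads, which may be technical, and no spread between replicate arrays. The fit was tested on simulated data.

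Alternatives were the median of probes, 1 probe per gene, a variance trend, no block, a filter on the line difference and separate probes. Members, lists and tests were chosen with earlier results of these data known. Up to 4 genes per list and comparison were named, by the largest difference (for the siRNA, the larger of the changes in the lines); REST and GRP were named outside that rule, after their values were seen. The 13 lists held 136 genes, 125 of them measured.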

Additional observations from a re-analysis of the deposited data

Results flagged for a closer look

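The siRNA changes of 4 markers had opposite signs in H520 and LK2, which marked them for a closer look, and the difference was not tested. DDC was at -0.62 in H520 and 0.19 in LK2, and SCG3 at 0.092 and -0.65. The changes of SCG2 (-0.13 and 0.028) and NCAM1 (-0.078 and 0.027) were smaller than the SD of a single probe within its gene, 0.18 in H520 and 0.21 in LK2. NCAM1 is a mean of 4 probes, so that SD is not a direct measure for it. Opposite signs were seen in 45.9% of all genes.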

How the results depend on the processing

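The limma siRNA contrast called 1 gene over all genes, 73 with 1 probe per gene, 22 with a variance trend, 51 over separate probes, and 0 both without the replicate block for cell line (148 at an unadjusted p under 0.05) and among genes above the median line difference (863 at an unadjusted p under 0.05). The cause of these shifts was not tested. No setting called a marker in it (5 settings; NCAM1, SYP and UCHL1 did not reach the last filter). At 2-fold, 0 markers were reached in H520 and 0 in LK2, and at 1.5-fold 4 differed between the control arrays (CHGB, DDC, SCG2 and SCG3). On those arrays 16.55% of all genes differed at least as much as SCG2, the smallest of these 4 differences. In the line difference, without the replicate block, 3 of 4 marker calls held and INSM1 had an adjusted p of 0.0694. NCAM1 reversed to -0.0025 with 1 probe per gene. The remaining 40 of 42 marker values of the line difference, and all 42 of the siRNA contrast, kept their sign and their side of the threshold. Signs could move only for NCAM1 and SCG3, the markers with more than 1 probe. For the others no setting can change the estimate, only its error and adjusted p. The filter also selects genes on the line difference itself, so its line calls are no separate check. Leaving out an array leaves no residual degree of freedom, so no such test was run. Signal over background is unknown for every probe, and 7 markers rest on 1 probe.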
